A study of Mus musculus with 3 samples.

Results

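The regions described here are the 300 strongest distal sites of open chromatin in embryonic mouse liver, as measured by DNase-seq. DNase I is an enzyme that cuts DNA where chromatin is accessible, so dense cuts mark open sites. Peak lists of the 3 replicates were joined where they shared at least 1 bp, which gave 61155 regions, and 24196 of them held a peak in every replicate. Of these, 8810 lay over 1 kb from every transcript start of the GENCODE M21 annotation and were called distal. The 300 distal regions with the highest mean signal over the 3 replicates were taken, where the signal of a replicate is the highest depth-normalised cut density of its peaks in the region. The members were thus selected on their measured signal, and its values are given as a description with no test.

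All libraries belong to 1 group. The labels give liver of the mouse strain C57BL/6N,129 at 13.5 days of embryonic age, with the HS2 HS3 deletion as a globin mutation marked HOM. HS2 and HS3 are known as hypersensitive sites of the β-globin locus control region. The 3 biological replicates come from separate biosamples listed under 1 donor entry, and whether these are single embryos or pools is not given in the sources used here. Liver without the deletion was not analysed here, and genotypes were not compared. The shorter of the 2 deposited peak lists was used. It held 28209, 57314 and 41319 peaks in replicates 1 to 3, and the sequencing depth is unknown. Embryonic liver holds mainly red cell precursors together with hepatoblasts. Among all 8810 distal regions 178 lay within 50 kb of the start of a listed erythroid gene and 14 within 50 kb of a listed hepatoblast gene. The erythroid lists held 26, 10, 30 and 23 genes and the hepatoblast list 24. The 2 counts thus rest on lists of unlike length and do not measure the share of either cell type. In a bulk tissue, more cells with an open site and more cutting per cell cannot be told apart.

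Distal open sites are usually enhancers, insulators bound by CTCF, or promoters that an annotation lacks. Genes for tRNAs are read by RNA polymerase III from a promoter inside the gene, where the factor TFIIIC binds the A box and the B box and places TFIIIB just before the gene. Ribosomal RNA genes and the satellite DNA of centromeres stand in long arrays that a genome assembly holds only in part, so reads from many copies can be placed on a few short copies elsewhere. A strong site can also arise where 1 sequence in the assembly stands for many in the nucleus.

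The sequences below carry the main findings. All are from GRCm38, 5′ to 3′. The first pair are stretches of the regions ranked 2 and 7 (chr6:49236450-49236617, minus strand, and chr12:78350950-78351117, plus strand). They are shown because strong sites on different chromosomes were nearly the same sequence, and the capital marks their only mismatch, T105C, counted from the first printed base.
chr6 stretch: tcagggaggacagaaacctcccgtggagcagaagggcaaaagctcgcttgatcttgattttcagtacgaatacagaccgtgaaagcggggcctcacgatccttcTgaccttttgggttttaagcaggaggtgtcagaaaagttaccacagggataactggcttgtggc
chr12 stretch: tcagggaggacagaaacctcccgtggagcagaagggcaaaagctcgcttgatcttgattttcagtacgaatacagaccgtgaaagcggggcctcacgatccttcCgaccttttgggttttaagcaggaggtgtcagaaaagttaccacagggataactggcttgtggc
In every other sequence capitals mark bases that lay inside a footprint, a short stretch protected from cutting, in all 3 replicates. The region ranked 3 (chr3:5860361-5860530, plus strand) belongs to the same family, and not one of its 32-base words is unique in the genome. The region ranked 5 (chrX:143482981-143483140, plus strand) had the least even signal of all 300.
chr3 region: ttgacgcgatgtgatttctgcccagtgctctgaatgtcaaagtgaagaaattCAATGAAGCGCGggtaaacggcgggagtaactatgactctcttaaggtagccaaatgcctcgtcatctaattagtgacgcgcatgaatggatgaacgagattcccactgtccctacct
chrX region: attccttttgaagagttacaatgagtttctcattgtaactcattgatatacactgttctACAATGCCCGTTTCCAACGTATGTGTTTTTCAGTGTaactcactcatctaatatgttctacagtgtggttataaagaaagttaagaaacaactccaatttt
The 3 strongest tRNA gene regions are shown as the 60 bases before the gene and the gene itself, in the sense of transcription. They are n-TLcag4 for leucine (chr8:94704004-94704146, minus strand), n-TNgtt14 for asparagine (chr5:149229001-149229134, minus strand) and n-TRccg1 for arginine (chr11:107012806-107012938, plus strand). In each, 1 block of capitals lies before the gene, in n-TRccg1 reaching its first base, and the other covers the B box letters (GGTTCGA, any 2 bases, then CC).
n-TLcag4: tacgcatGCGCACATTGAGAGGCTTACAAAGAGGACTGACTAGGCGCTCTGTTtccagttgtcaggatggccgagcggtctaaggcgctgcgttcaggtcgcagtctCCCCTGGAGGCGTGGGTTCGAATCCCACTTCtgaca
n-TNgtt14: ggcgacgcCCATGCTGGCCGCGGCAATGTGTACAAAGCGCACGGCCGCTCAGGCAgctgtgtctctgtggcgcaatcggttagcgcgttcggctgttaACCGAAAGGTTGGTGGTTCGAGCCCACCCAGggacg
n-TRccg1: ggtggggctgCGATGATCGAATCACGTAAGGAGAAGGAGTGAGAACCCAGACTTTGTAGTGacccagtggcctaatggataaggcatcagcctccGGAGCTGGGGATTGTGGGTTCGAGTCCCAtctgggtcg
The last 3 are whole regions with unique sequence. The region ranked 15 (chr6:117879461-117879720, plus strand) holds the NRF1 motif (GCGC, any base, then TGCGC) inside a footprint at bases 61 to 70. The other 2 lie in Alad (chr4:62516661-62516920) and in Klf1 (chr8:84903081-84903340), both printed on the plus strand.
rank 15: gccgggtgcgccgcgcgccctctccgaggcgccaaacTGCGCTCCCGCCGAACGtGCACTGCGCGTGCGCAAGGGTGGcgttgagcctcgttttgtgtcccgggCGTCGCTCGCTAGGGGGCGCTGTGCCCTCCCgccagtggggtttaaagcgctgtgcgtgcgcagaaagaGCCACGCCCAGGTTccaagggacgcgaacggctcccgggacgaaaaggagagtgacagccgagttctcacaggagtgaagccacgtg
Alad: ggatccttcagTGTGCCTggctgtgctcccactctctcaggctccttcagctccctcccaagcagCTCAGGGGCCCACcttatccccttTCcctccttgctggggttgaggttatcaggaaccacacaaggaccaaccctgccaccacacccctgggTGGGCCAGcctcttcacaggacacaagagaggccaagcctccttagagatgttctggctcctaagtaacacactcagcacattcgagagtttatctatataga
Klf1: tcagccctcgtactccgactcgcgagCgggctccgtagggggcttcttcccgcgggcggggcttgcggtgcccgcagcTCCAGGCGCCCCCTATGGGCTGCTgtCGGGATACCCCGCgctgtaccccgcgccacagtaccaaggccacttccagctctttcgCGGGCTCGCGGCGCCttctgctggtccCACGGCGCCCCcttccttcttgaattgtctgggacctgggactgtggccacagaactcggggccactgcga

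The mean signal of the 300 ran from 6.23 to 90.6 with a median of 8.05. The medians over the members were 7.19, 10.2 and 7.60 in replicates 1 to 3, against medians of 1.59 to 1.95 over all 8810 distal regions. The order falls steeply at first and is then flat. Rank 300 on chromosome 19 (46499821 to 46500040) near Trim8 had a mean of 6.23 ± 2.49 (SD, n = 3). Rank 301 on chromosome 2 (152766581 to 152766780) had 6.22 ± 0.573. The regions at ranks 298 and 299, near Selenon and Mir1894, had 6.24 ± 0.293 and 6.24 ± 3.69. The regions at ranks 302 and 303, near Gm45743 and Tal1, had 6.22 ± 0.627 and 6.21 ± 0.561. The limit at 300 thus separates regions whose means differ by less than their spread between replicates.

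**Figure D1:**
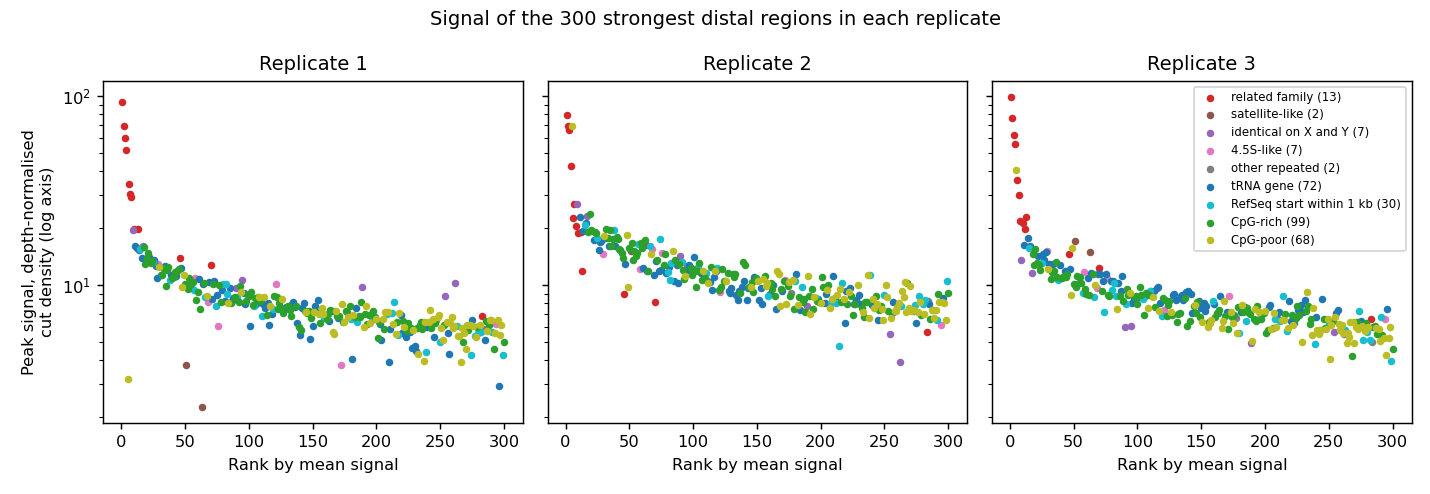
Peak signal (depth-normalised cut density, log axis) of the 300 regions in each replicate against their rank by mean signal, coloured by class of sequence, with the number of regions in each class in brackets. The 13 regions of the related family hold 10 of the first 20 ranks, and 1 CpG-poor region and 2 satellite-like regions fall far below their neighbours in replicate 1.

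The members were sorted into 9 classes that do not overlap, by their sequence and annotation. Among them, 5 classes of repeated sequence held 31 of the 300. They were a family of 13 related sequences, 7 regions on X with an identical copy on Y, 7 with similarity to the 4.5S RNA gene, 2 of satellite sequence and 2 others. Another 72 overlapped a RefSeq tRNA gene. Of the other 197 regions, 30 had a RefSeq transcript start within 1 kb that GENCODE lacks, 99 were rich in CpG and 68 were poor in CpG. Predicted transcript models were not left out of the RefSeq starts, here and below. CpG-rich means a ratio of observed to expected CpG over 0.6. These 197 are not free of repeated sequence, since 7 of them had under 80% unique words and had 10 to 1668 matches elsewhere, whole or in part. They include the regions ranked 5 and 49 and those ranked 187 and 274, with 1666 and 1668 matches.

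The related family held ranks 1 to 4, 6 to 8, 10, 12 and 13, then 46, 70 and 283. Its members lay on 10 chromosomes, 8 of them in introns, and were matched at 76.9% to 91.9% identity over 61 to 261 bases to 1 or more of 3 places on chromosomes 9, 14 and 17. Their letters are those of the 28S ribosomal RNA, which forms the core of the large ribosomal subunit. That identity is general knowledge and was not computed, because no full-length 28S gene was used here. The strongest member, on chromosome 9 (123461901 to 123462140), lies in the 3′ untranslated part of Lars2, a mitochondrial leucyl-tRNA synthetase gene. Its signals in replicates 1, 2 and 3, the order used for all regions from here on, were 93.4, 79.1 and 99.3. The region ranked 2 had 69.0, 69.4 and 76.1, and lies between genes with Igf2bp3 as the nearest protein-coding start. The region ranked 3 had 59.7, 65.9 and 62.4. The ranges of these 3 regions over the replicates do not overlap.

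The region ranked 4 lies in an intron of Il31ra, an interleukin receptor gene (chr13:112578161-112578320), and had 51.8, 42.7 and 56. Jarid2, which encodes a subunit of a Polycomb complex, held 2 members in 1 intron. Their signals were 34.3, 22.5 and 35.8 at rank 6, and 13.8, 8.99 and 14.6 at rank 46. The region ranked 7 in an intron of Gphn had 30.4, 26.8 and 29.9. Its printed stretch was 99.4% identical to that of the region ranked 2 over 168 bases. The region ranked 12 and the region ranked 10 were 95.0% identical over 159 bases. Replicate 2 was the lowest in 10 of the 13, whereas it was the highest in 254 of all 300 (84.7%, against 56.3% of all distal regions).

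The family was narrow among the members, but not against all distal regions. Joined widths ran from 100 to 260 bp with a median of 200, against 240 for all members and 200 over all distal regions. Bases with an FDR below 0.001 were counted in the region and 1 kb on each side. The median was 352, 380 and 367 of these in the 3 replicates, a mean of 366 ± 14 (SD, n = 3). Over all members it was 846 ± 142, and over all distal regions 286 ± 71.0. The median number of footprints was 2 in each replicate, and each of the 13 had at least 1 footprint shared by all replicates.

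**Figure D2:**
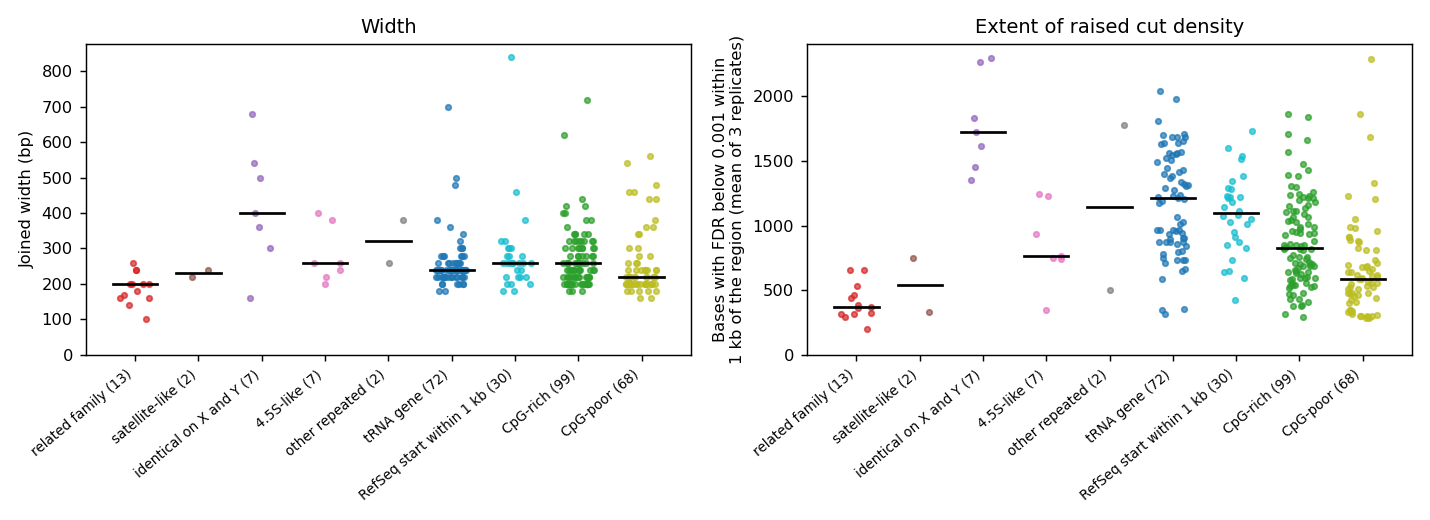
Joined width (bp, left) and number of bases with an FDR below 0.001 within 1 kb of the region (mean of 3 replicates, right) for each region, by class; black lines are class medians. The related family lies at the low end of both, and the regions with identical copies on X and Y at the high end of both.

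The region ranked 5, between genes 35.5 kb from the start of Pak3 on chromosome X, had signals of 3.20, 69.2 and 40.8, so that replicate 1 was far below the other replicates. Its highest value was 21.6 times its lowest, the largest ratio of the 300. The sequence matched 402 other places in the assembly, 348 of them on chromosome Y, at a median identity of 74.3%. Its letters are those of the minor satellite of mouse centromeres, again as general knowledge. The satellite-like pair at the start of chromosome 9 (3002021 to 3002240 and 3006701 to 3006940) had 356 and 375 places of at least 90% identity and no unique word. Their letters are those of the major satellite. The first had 2.26, 16.3 and 15, and the second 3.77, 15.2 and 17.1. These 3 regions were all lowest in replicate 1, and only these 3 of the 300 (1.00%, against 0.704% of all distal regions) differed by more than 3 times between replicates. The next largest ratios were 2.92 and 2.88, at a pair of tRNA gene regions on chromosome 13 that were also lowest in replicate 1. The cause of the difference between replicates was not tested.

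A cluster of 7 members spanned chromosome X from 169990141 to 170020220, in or near Mid1 and Gm21887. This is the end of X that pairs with Y in male meiosis. Each of the 7 had a copy on Y that was identical over its whole length, 160 to 680 bp, so a read inside it matches both chromosomes. The strongest, at rank 9 in an intron of Mid1, had 19.6, 26.9 and 13.5. The weakest, at rank 262 near Gm21887, had 10.3, 3.90 and 5.49. These regions were wide and rich in footprints, with a median width of 400 bp and a median of 9, 6 and 8 footprints in the 3 replicates. Their bases below an FDR of 0.001 had a median of 2300, 1065 and 1930. The mean of these, 1765 ± 634 (SD, n = 3), was the highest of the 9 classes, although replicate 2 was below the replicate 2 median of the tRNA gene regions.

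The 7 regions with similarity to Rn4.5s, the gene of a small RNA polymerase III transcript of rodents, lay in 2 places of chromosome 6. They were 2.33% of the members against 0.182% of all distal regions. The strongest, at rank 29, had 12.9, 14.6 and 15.2 and matched Rn4.5s over 171 bases. A group of 6 members, more than for any other gene, had Klrb1c as the nearest protein-coding gene, a gene of natural killer cells. Of these, 4 matched Rn4.5s over 80 to 95 bases. The region ranked 187 (chr6:128760081-128760300) and the one ranked 274 (128798861 to 128799080) were 95.8% identical over 216 bases. The other 2 of the class lay in the same stretch as the strongest, at rank 58 with 10.9, 12.2 and 11.7 and at rank 294 with 6.25, 6.11 and 6.62. Their highest values were 1.12 and 1.08 times the lowest, while the ratio reached 2.82 near Klrb1c.

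Of the 300, 116 (38.7%, against 12.7% of all distal regions) had at least 1 word of 32 bases that occurs elsewhere in the genome, and 184 had none. A total of 20 (6.67%) had under 50% unique words, against 1.42% of all distal regions, and 7 of these were in the first 10 ranks. Those with the lowest share, 0%, were the 7 regions of X and Y, the 2 satellite regions, and the regions ranked 3 and 8 of the related family. Under 80% was reached by 80 members (26.7%, against 4.51%). The tRNA gene regions had a median share of 79.2%. The region ranked 49 on chromosome 1 (122357141 to 122357300) was outside the related family by the computed matches, but it matched 10 other places at 80% to 92.7% identity. Its letters are also those of 28S ribosomal RNA.

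**Figure D3:**
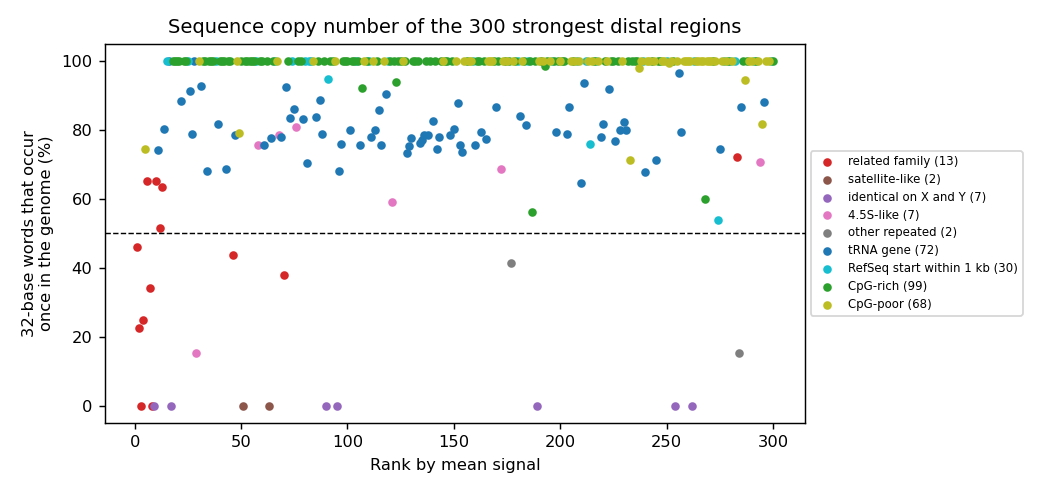
Share of the 32-base words of each region that occur once in the genome on either strand (%) against rank by mean signal, coloured by class; the dashed line marks 50%. Of the first 10 ranks 7 lie below 50%, and most later regions lie at 100%, with tRNA gene regions between.

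Regions over tRNA genes were the largest single group of known identity, with 72 of 300 (24%, against 1.98% of all distal regions). They held 74 tRNA genes for 19 of the amino acid classes, led by arginine, leucine and valine with 7 genes each. RefSeq lists 403 such genes on the chromosomes, and 239 of them were covered by regions common to the replicates, 175 of these distal. The GENCODE annotation of gene starts that the rule used does not hold nuclear tRNA genes, so these promoters count as distal. The median signal of the class was 8.46 and the range 6.32 to 18.4. The strongest, over n-TLcag4, had 16.0, 22.8 and 16.3. The region over n-TNgtt14 had 15.4, 19.3 and 17.7, and that over n-TRccg1 had 13.8, 21.3 and 16.1. Replicate 2 was highest in all 3, as in 60 of the 72, against 254 of all 300. Replicate 1 was lowest in 64 of the 72, against 168 of all 300.

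Many of these genes stand close together. Chromosome 11 held 41 members, 22 of them over tRNA genes, and chromosome 13 held 32, with 18 over tRNA genes. A stretch of chromosome 13 from 23432621 to 23467200, near Abt1 and Btn1a1, had 6 members of which 5 were tRNA gene regions. A stretch of chromosome 11 from 69036881 to 69041920, near Aurkb, a kinase of cell division, had 5, all over tRNA genes. Near Shf on chromosome 2 there were 3, all over tRNA genes, and the strongest of these had 12.6, 16.1 and 12.9.

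Footprints lay at the same positions in these genes. From 45 to 6 bases before the gene, 83.6%, 94.8% and 92.5% of bases were in a footprint in the 3 replicates, a mean of 90.3% ± 5.89 (SD, n = 3). Bases 11 to 30 of the gene were at 3.19% ± 1.28. Bases 46 to 65, where the B box lies in a gene of the median length of 73 bases, were at 90.7% ± 4.15. A gap at 75 to 56 bases before the gene was at 3.76% ± 0.328. Farther out, at 100 to 86 bases before the gene, the share was 59.1% ± 9.11, measured in 54 genes. Called footprints were thus frequent just before the gene and around the B box and rare between, and cutting itself was not measured here. A box letters were not searched. The B box motif, searched on both strands, was present in the central 200 bp of 50 members (16.7%, against 1.31%). It touched a shared footprint by at least 1 base in 55 of the 60 members that hold it anywhere in the region (91.7%, against 86.8% of all distal regions with the motif). In the tRNA genes of weaker distal regions the same windows were at 65.6% ± 20.4 before the gene and 78.4% ± 8.41 over the B box. Before the gene the replicates were at 42.8%, 82.4% and 71.4%, each below its value in the members and replicate 1 the lowest. The SDs of these windows are wide.

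**Figure D4:**
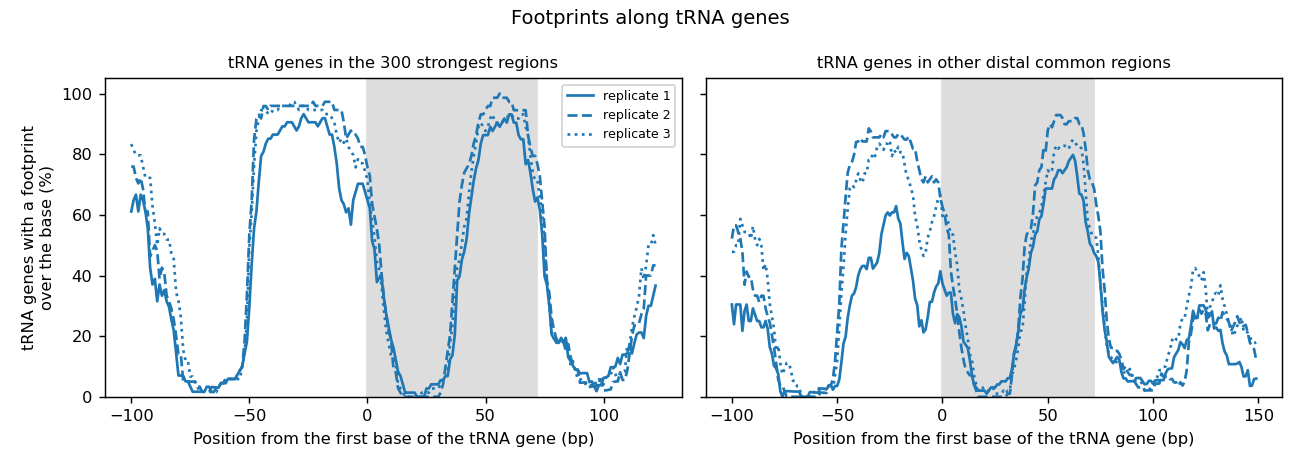
Share of tRNA genes with a footprint over each base (%) against position from the first base of the gene (bp), for tRNA genes in the 300 strongest regions (left) and in other distal regions with a peak in all 3 replicates (right); each line is 1 replicate, and the first 73 bases of the gene are shaded. On the left the bases from 45 to 6 before the gene average 90.3% and bases 46 to 65 of the gene 90.7%, with bases 11 to 30 between them at 3.19%.

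Many of the other regions were rich in CpG, as promoters often are. Among all 300 the median CpG ratio was 0.733, against 0.302 over all distal regions, and 208 (69.3%, against 14.8%) were above 0.6. Outside the repeated classes and tRNA genes, 119 of the 197 were above 0.6. A RefSeq transcript start lay within 1 kb of 45 members (15%, against 7.08%). The strongest region of this group, at rank 15, lies 16.4 kb from the start of Zfp239 and contains a RefSeq start. It had 15.5, 20.8 and 15.7, with 4 shared footprints. The next were CpG-rich regions near Foxk1 (15.9, 19.2 and 14.7), near Trappc9 (12.9, 23.7 and 12.8) and near Chd2, a chromatin remodeller gene (13.8, 19.4 and 15.6). The region near Trappc9 was high in replicate 2 alone, while the other 2 were closer together.

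Ptma, which encodes prothymosin alpha, a small acidic protein of dividing cells, was the nearest gene of 5 members, all with unique sequence. The strongest of them, 39.0 kb from its start, had 14.7, 19.3 and 13. A second, 1.19 kb from the start, had 12.4, 17.6 and 11.1, and another, inside an intron, 6.31, 6.90 and 7.74. The other 2 were CpG-poor, at means of 6.79 ± 1.11 and 6.51 ± 0.668. After Klrb1c, Gm21887 and Ptma the gene with the most members was Abt1 with 4, of which 2 were over tRNA genes, and Shf was among those with 3.

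Most enhancers are poor in CpG, and 68 members were in the CpG-poor class. After the region ranked 5, its strongest member was at rank 30, in an intron of Ccnd3, the cyclin D3 gene that sets the number of divisions of red cell precursors. It had 12.5, 18.1 and 12.1. A region in an intron of Itpkb at rank 48 had 9.82, 18.5 and 8.91, and one in an intron of Igf1r, a growth factor receptor gene, at rank 84 had 8.03, 15.1 and 7.44. Each was highest in replicate 2 and had nearly equal values in replicates 1 and 3. The class had a median signal of 7.02 and a median width of 220 bp.

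Listed erythroid genes had a start within 50 kb of 9 members (3.00%, against 2.02% of all distal regions), all with unique sequence. Of the strongest 150 they were 1.33%, below the share in all distal regions, and of the strongest 600 they were 5%. The strongest lies in an intron of Alad, which encodes an enzyme of heme synthesis, at rank 74, with 7.79, 17.6 and 7.23. It is 2.96 kb from the nearest GENCODE start but contains a RefSeq start, and its CpG ratio of 0.0522 is the lowest of all 300. Its printed sequence holds the GATA letters ttatca and ttatct on the reverse strand and the KLF letters ccacaccc. None of these bases lay inside a footprint in all 3 replicates. Hmox1, a gene of heme breakdown, had a region 9.52 kb away with 5.97, 13.2 and 6.07. Both were high in replicate 2 alone.

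Of these regions, 5 were near genes listed here as erythroid transcription factors (1.67%, against 0.919% of all distal regions). That list was broad, and the regions near Nfe2l1 and in Runx1 are among the 5. Another 2 were near heme and iron genes (0.667%, against 0.363%). A region 4.77 kb from Pdzk1ip1 and within 50 kb of Tal1 (chr4:115095701-115096160) had 7.19, 10.5 and 6.40 and was 460 bp wide with 7 shared footprints. The region in a coding exon of Klf1, 1.15 kb from its start, had 6.84, 8.11 and 7.53. Its printed sequence holds 2 matches to the CTCF motif (CC, any 3 bases, AG, any 2 bases, then GGC), and the one at bases 86 to 97 lies wholly in a footprint of all replicates. A region in an intron of Zfpm1, which encodes the GATA1 cofactor FOG1, had 7.37, 7.56 and 5.49. A region 7.85 kb from Copz2 within 50 kb of Nfe2l1 had 5.88, 8.17 and 6.57, and one in an intron of Runx1 had 5.96, 6.91 and 6.31. These values were even between replicates compared with those near Alad and Hmox1.

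Epb41, a gene of the red cell membrane skeleton, had a region 1.46 kb away with 7.02, 10.8 and 6.01, the 1 member near a listed erythroid membrane or effector gene (0.333%, against 0.692%). The α-globin genes had 1 member, on chromosome 11 (32324741 to 32324940), with 6.43, 6.59 and 6.05 (0.333%, against 0.0681% of all distal regions near a listed globin gene). Its nearest start was that of Sh3pxd2b, 22.9 kb away. No member was within 50 kb of the start of a listed β-globin gene. None was within 50 kb of a listed hepatoblast gene either (0 of 300, against 0.159%). The same held for the listed endothelial (0.102%), megakaryocyte (0.102%), macrophage (0.125%), stem and progenitor (0.148%) and neuron and muscle genes (0.0795%), where the percentages are shares of all distal regions. Runx1 was counted in the erythroid list and not among the stem and progenitor genes.

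Motifs were searched as letters in the central 200 bp of each region, on both strands. GATA letters (GATAA or GATAG after an A or a T) were in 59 members (19.7%, against 30.7%) and CTCF letters in 65 (21.7%, against 40.1%). NRF1 letters were in 24 (8%, against 0.953%), ETS letters CCGGAAG in 27 (9%, against 2.63%) and NF-Y letters CCAATCA in 17 (5.67%, against 2.69%). KLF letters (CC, any base, then CACCC) were in 38 (12.7%, against 11.5%). An E-box with GATA (CTG, 7 to 9 bases, then GATAA) was in 12 (4%, against 6.37%), AP-1 letters TGANTCA in 17 (5.67%, against 6.65%) and forkhead letters TGTTTAC in 9 (3%, against 2.03%). YY1 and ZNF143 letters were in 2 members each, against 0.125% and 0.238%. NF-E2 letters were in 4 (1.33%, against 1.06%). In the 197 regions outside the repeated classes and tRNA genes the shares were 17.8% for GATA, 29.9% for CTCF, 9.14% for NRF1 and 11.7% for ETS. For KLF the share was 17.3%, for the E-box with GATA 6.09% and for NF-Y 8.63%. Among the 72 tRNA gene regions KLF letters were in 1 and the E-box with GATA in none. AP-1 letters were in 8.63% of these 197, above the share in all distal regions, whereas in the 300 they were below it. GATA letters were in 17 of the 68 CpG-poor regions and 14 of the 99 CpG-rich ones, and CTCF letters in 24 and 30. HNF4, HNF1 and REST letters were in none of the members, against 0.193%, 0.0114% and 0.284% of all distal regions.

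Some motifs coincided with footprints more than others. NRF1 letters touched a shared footprint by at least 1 base in 26 of the 27 members that hold them anywhere in the region, against 77.3% of all distal regions with the motif. CTCF letters did so in 69 of 75, against 87.8%, and GATA letters in 29 of 68 (42.6%), against 14.3%. Of the 59 members with GATA letters in the central 200 bp, 18 were tRNA gene regions. The overlap with footprints was not counted without them. Footprints also covered more of the members, at 38.1% of the median region against 18.9%, and the part of this coverage in the counts was not tested. A match of letters is a description and does not show that a factor was bound.

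**Figure D5:**
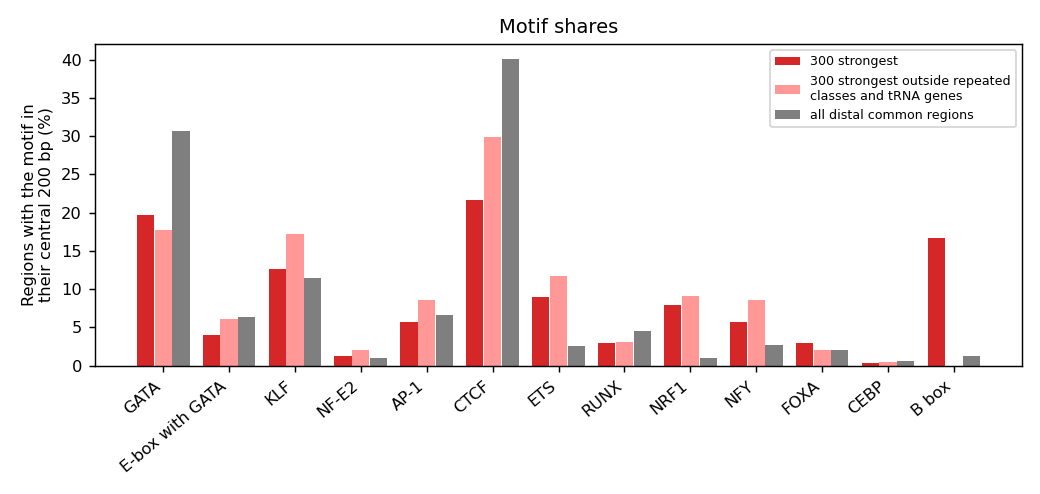
Share of regions with each motif in their central 200 bp (%), for the 300 strongest regions, for the 197 of them outside the repeated classes and tRNA genes, and for all 8810 distal regions; motifs in at least 0.5% of all distal regions are drawn. NRF1 letters are in 8% of the 300 against 0.953%, and CTCF letters in 21.7% against 40.1%.

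Over all 300 the joined width had a median of 240 bp and a range of 100 to 840, against a median of 200 over all distal regions. None was wider than 1000 bp (0 of 300, against 0.193%). The widest was 840 bp on chromosome 8 (69716401 to 69717240) near Zfp869, followed by 720 bp near Rps6ka1, 700 bp over the tRNA gene n-TGgcc4 near Fcgr3, 680 bp on X near Gm21887 and 620 bp in a coding exon of Zfp771. The one on X had rank 95 and the other 4 had ranks 199 to 227, so the widest regions were not the strongest.

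Every member had a footprint in each of the 3 replicates (300 of 300, against 95.6%), and 298 had one shared by all 3 (99.3%, against 84.3%). The median was 5, 4 and 5 footprints per region, against 3 in each replicate over all distal regions. Footprints covered 38.1% ± 3.43 of the median member, against 18.9% ± 2.58. Footprints were called from the same cuts as the signal, and the part of the signal in this difference was not tested.

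In position, 193 of the 300 (64.3%, against 47.4%) were intergenic and 80 (26.7%, against 44.9%) were intronic. Coding exons held 6 (2.00%, against 2.57%), untranslated parts of exons 13 (4.33%, against 2.94%) and exons of non-coding transcripts 8 (2.67%, against 2.19%). Outside the repeated classes and tRNA genes 115 of 197 were intergenic. Over 10 kb from any start were 87 members (29%, against 42.6%), and the median distance was 5.76 kb against 7.82 kb.

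The features that can mark an artefact were counted for each member. At least 1 was present in 37 (12.3%), and in all of the first 10 ranks, 12 of the first 20 and 14 of the first 50. Under 50% unique words were present in 20 (6.67%, against 1.42%). A match at 90% identity or more over at least 80% of the joined region was present in 27 (9%). Such matches were searched for the members only, so this share and the 12.3% could not be compared with all distal regions. Similarity to Rn4.5s was present in 7 (2.33%, against 0.182%). Over 25% of 12-base words were repeated within the region in 3 (1.00%, against 1.06%). A replicate ratio over 3 was present in 3 (1.00%, against 0.704%). An assembly gap or chromosome end within 50 kb was present in 15 (5%, against 1.17%). No member was similar to the mitochondrial genome, lacked footprints in every replicate (0, against 0.363%), or lay outside the assembled chromosomes. The 263 members with none of these features had mean signals of 6.23 to 18.4 with a median of 7.92. All 72 tRNA gene regions were among them, and so was 1 of the 13 regions of the related family. No full-length gene of the large ribosomal RNA was used here, so these features could not mark similarity to it. The 263 are thus not free of sequence like that of the related family. The region ranked 11, over n-TLcag4, was the strongest of the 263.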

How the data were processed

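DNase-seq libraries of 3 biological replicates of 1 group were analysed. Per the notes deposited with the files, each sample had its own peaks, footprints and FDR stretches, derived from its filtered mm10 (GRCm38) alignments without pooling. No name of an aligner or caller is given in the sources used here. As signal, the authors deposited a cut density scaled to read depth, by a scaling that is not described. The deposited FDR values, of the p-value kind, give 1 value for each stretch of bases. Depth per sample is unknown, so no counting interval was given.

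Peaks were joined in Python, and bedtools 2.31.1 was used to overlap regions with footprints and annotation. Starts came from GENCODE M21. Words of 32 bases were counted on both strands. Matches to other places used BLAST+ 2.17.0 at 90% identity over 80% of the joined region, for the 300 members only. A satellite-like region had at least 100 such places, and 4.5S similarity needed 50 aligned bases. Python 3.11.15, pandas 2.3.3, numpy 2.4.6 and samtools 1.23.1 were used, and the counting steps were tested on simulated data. RefSeq tables and sequences are of GRCm38. A shared footprint is a chain of overlapping footprints that includes every replicate.

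The members and gene lists were chosen with earlier results of these data known, and the 9 classes were defined after seeing them. Regions were named by rank (the first 20, the edge at 300), the 5 widest, the 5 with the fewest unique words, the 5 with the largest replicate ratio, the erythroid list genes within 50 kb and the 5 genes with the most members. Others, such as the CpG-poor regions in introns, the regions ranked 29, 46, 49, 58, 70, 187, 274, 283 and 294, and the evenness of single regions, were chosen after their values were seen. All shares of all distal regions include the 300. With 1 group no test was made, and the SD is the spread between replicates, which may be partly technical. Alternatives changed the peak list, the peak strength, the joining, the distance to a start, the ranking, the number of regions, the replicates, the word length and the motif window.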

Additional observations from a re-analysis of the deposited data

How the results depend on the processing

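Under other settings, 149 recomputed values stayed within the limits set for them and 8 did not. The first number does not measure stability, because the longer peak list and the upper 50% of peaks chose the same 300 regions, and every setting had a footprint in each replicate for all regions chosen. The number of distal regions common to the replicates was 15460 with the longer peak list and 2825 with the upper 50% of peaks, against 8810. Leaving out 1 replicate gave 8985 to 17008, the highest without replicate 1, the replicate with the fewest peaks. The median joined width was 220 to 240 bp when 1 replicate was left out, with 220 without replicate 2. Members within 50 kb of an erythroid list gene were 2 of the strongest 150 (1.33%) and 30 of the strongest 600 (5%), against 9 (3%), with 2.02% of all distal regions between these shares. Members with few unique words were 80 when the limit was 80% of words, against 20. GATA letters were in 34 members in the central 100 bp, against 59 in 200 bp. The causes of these changes were not tested beyond what the settings themselves alter. Leaving out tRNA gene regions or the repeated classes was added after seeing the data. No paired analysis was possible because the labels give 1 group. The unknown depth limits what the footprint counts can show.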
